A study of Homo sapiens with 6 samples.

Results

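The 39 genes described here encode the machinery that removes the poly(A) tail and the cap of cytoplasmic mRNAs and degrades what is left. They were taken from a deposited table of 26364 gene symbols by matching each symbol exactly, and all 39 were found. They fall into 16 deadenylation genes, 10 genes of decapping and 5′-to-3′ decay, and 13 genes of the RNA exosome and its cytoplasmic Ski partner complex. The cells were HEK293T, an embryonic kidney line that carries SV40 large T antigen. Every dish received 200 nM okadaic acid for 3 h, so no library is from untreated cells. Okadaic acid inhibits phosphatases that dephosphorylate UPF1, an RNA helicase needed for nonsense-mediated mRNA decay (NMD). The p-UPF1 IP group (n = 3, replicates 3, 6 and 9) is RNA immunoprecipitated with an antibody against phosphorylated UPF1. The pre-IP group (n = 3, replicates 1, 4 and 7) carries that title but a rabbit IgG antibody label, so the labels conflict on whether it is input RNA or a mock IP. The libraries capture RNA fragments by ligating adapters to both ends, and the groups are set against each other to find RNA held by phosphorylated UPF1.

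Cytoplasmic decay of an mRNA usually begins with shortening of its poly(A) tail by PAN2-PAN3 and the CCR4-NOT complex. The DCP2 enzyme and its activators then remove the cap and XRN1 digests the body from its 5′ end, or the exosome, helped by the Ski complex, digests it from its 3′ end. In human NMD, SMG proteins that bind phosphorylated UPF1 recruit CCR4-NOT and decapping factors to the target. The values below are reads from the mRNAs of these factors, not the amounts or activities of the proteins.

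Total counts were 905926 to 2057647 per p-UPF1 IP library and 600244 to 1179369 per pre-IP library. All values of level below are CPM, counts scaled to a common library size, after scaling by the trimmed mean of M-values (TMM), unless stated otherwise. The TMM factors lay between 1.53 and 2.05 in p-UPF1 IP and between 0.469 and 0.672 in pre-IP. Scaling therefore matters here: over the 8070 genes tested, log2 fold changes had a median of 0.10 with TMM and 1.6 with library totals alone. Changes are relative to the scaling used, and signs are taken against 0, not against that median. Pairs of p-UPF1 IP libraries had r of 0.91 to 0.92 in log2(CPM + 1) over tested genes, pairs of pre-IP libraries 0.73 to 0.78, and pairs across groups 0.64 to 0.71. Of 7 genes known from HEK293 lines, such as VIM and NEFM, 7 had counts in p-UPF1 IP and 6 in pre-IP, with PAX2 at 0 counts in pre-IP. Of 15 markers of other cell types, 10 had no count in any library. The summed share of counts of all 15 was 0.00038% to 0.000883% in p-UPF1 IP libraries and 0% to 0.000635% in pre-IP libraries. In bulk RNA fewer cells with a transcript and less RNA per cell cannot be told apart.

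The share of these mRNAs called different was near that of the whole table. Of 37 tested, 2 were higher in p-UPF1 IP (5.41%, against 8.81% of all tested genes) and 4 were lower (10.8%, against 10.9%), by edgeR's quasi-likelihood test with Benjamini-Hochberg adjustment over all genes at 0.05. Among the 7688 tested protein-coding genes 9.11% were higher and 8.08% lower. The decapping activator EDC3 and the 5′-to-3′ exonuclease XRN1 rose. The deadenylase CNOT7, the decapping cofactor LSM1 and the exosome subunits EXOSC7 and EXOSC8 fell, with EXOSC8 turning positive on library totals alone (log2 fold change 0.21). The median log2 fold change of the 37 was 0.02, with 19 positive and 18 negative. At an unadjusted edgeR p under 0.05, 6 were higher and 6 lower, where 1396 and 1349 of all 8070 tested genes were. In 7 members every p-UPF1 IP library lay above every pre-IP library (21.9% of all tested genes did so) and in 4 every one lay below (17.7%). The 2 members not tested, DCP1B and EXOSC4, had too few counts. On library totals alone 23 members were called higher and 0 lower, where 59.6% of all tested genes were called higher.

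As a share of all counts, without TMM, the 39 genes took 0.291%, 0.229% and 0.344% in p-UPF1 IP replicates 3, 6 and 9, against 0.0899%, 0.0721% and 0.0944% in pre-IP replicates 1, 4 and 7. The mean share was 3.37 times higher in p-UPF1 IP. All protein-coding genes together went the same way, with 64.6% ± 9.55 of counts in p-UPF1 IP and 31.4% ± 6.32 in pre-IP (SD, n = 3 each), a ratio of 2.06. These are ratios of summed counts, in which the most counted genes weigh most. Gene by gene on library totals alone, the median log2 fold change was 1.51 for the 37 tested members and 1.6 for all tested genes. By role the ratio of mean shares was 3.60 for deadenylation, 3.70 for decapping and 5′-to-3′ decay and 2.59 for the exosome and Ski genes. CNOT1 alone held 30.3%, 23.5% and 28.0% of the members' counts in the p-UPF1 IP libraries and 13.8%, 19.2% and 21.5% in the pre-IP libraries.

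**Figure D1:**
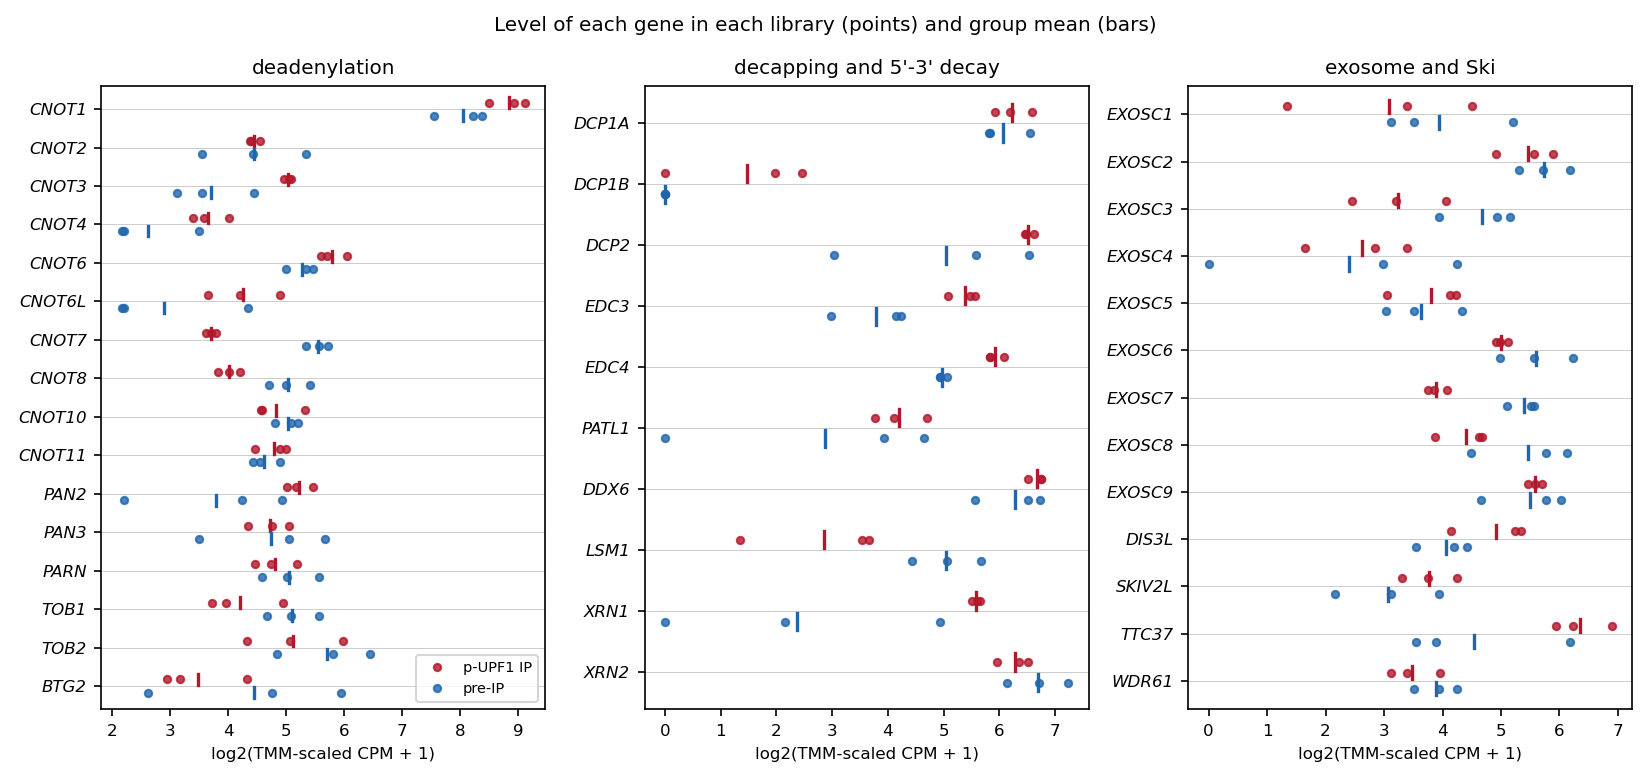
Level of each of the 39 genes in each library, on a log2 axis of TMM-scaled CPM + 1, with 3 p-UPF1 IP libraries (red, upper row of each gene) and 3 pre-IP libraries (blue, lower row), and vertical bars at the mean of the log2 values. CNOT7 and EXOSC7 show p-UPF1 IP points clear to the left of pre-IP, EDC3 and EDC4 clear to the right, and the XRN1 pre-IP points spread from 0 to 29.4 CPM.

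Of the 16 deadenylation genes, all tested, 1 fell and 0 rose, where 10.9% of all tested genes fell and 8.81% rose. The median log2 fold change was -0.19, against 0.10 over all tested genes. Its sign was not stable, with 1.37 on library totals alone, 0.04 with limma-voom, and 0.01 and 0.27 without pre-IP replicate 4 or 7. At an unadjusted p under 0.05, 2 were higher and 2 lower by edgeR, where 1396 and 1349 of all 8070 tested genes were. DESeq2 and limma-voom each called 0 deadenylation genes higher. The one call was CNOT7, a catalytic deadenylase of the CAF1 type within CCR4-NOT. It had 12.8, 12 and 11.2 CPM in p-UPF1 IP (42, 33 and 20 counts), against 39.7, 46.5 and 51.8 CPM in pre-IP (31, 13 and 30 counts). The groups did not overlap and each was tight. CNOT7 averaged 12 ± 0.821 CPM in p-UPF1 IP and 46 ± 6.1 CPM in pre-IP (SD, n = 3 each), 3.79-fold lower in p-UPF1 IP (log2 fold change -1.92, SE 0.43, edgeR adjusted p = 0.00493). The call held without each library in turn, with edgeR adjusted p from 0.00796 to 0.0333. On library totals alone the log2 fold change was -0.41 (adjusted p = 0.49).

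CNOT8, the paralog that takes the same place in the complex, also had every p-UPF1 IP library below every pre-IP library, with 13.1, 17.5 and 15.1 CPM in p-UPF1 IP and 30.7, 25.1 and 41.5 CPM in pre-IP. Its log2 fold change of -1.11 (SE 0.46) did not pass the threshold (edgeR adjusted p = 0.101) and was 0.38 on library totals alone. The CCR4-type catalytic subunits lay on the other side of 0. CNOT6 had 51.0, 47.3 and 65.4 CPM in p-UPF1 IP and 30.7, 43.0 and 39.7 CPM in pre-IP (log2 fold change 0.55, SE 0.36, edgeR adjusted p = 0.291). For CNOT6L the log2 fold change was 0.93 (adjusted p = 0.378), on 18 counts in pre-IP, of which 15 were in replicate 1. Without that library it was 2.42 (adjusted p = 0.0736).

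CNOT1, the scaffold on which CCR4-NOT assembles, was the most counted member, with 1815, 992 and 875 counts in p-UPF1 IP and 146, 83 and 192 counts in pre-IP. On the TMM scale it averaged 468 ± 98.3 CPM in p-UPF1 IP and 272 ± 75.7 CPM in pre-IP (SD, n = 3 each), and the groups did not overlap. The log2 fold change was 0.79 (SE 0.34, edgeR adjusted p = 0.106), not past the threshold, and -0.45 with the trend of fold change on coding length removed. CNOT3, a subunit of the module that also holds CNOT2, had 32.1, 30.2 and 33.0 CPM in p-UPF1 IP and 7.68, 10.7 and 20.7 CPM in pre-IP. Its log2 fold change of 1.28 (SE 0.51) had an edgeR adjusted p of 0.0873, and was 1.89 (adjusted p = 0.029) without pre-IP replicate 7. The other CCR4-NOT subunits overlapped between groups: CNOT2 (-0.26), CNOT10 (-0.16), CNOT11 (0.21) and the ubiquitin ligase CNOT4 (0.89) all had edgeR adjusted p of 0.432 or more.

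The other deadenylases and their adaptors gave no call. PAN2, the nuclease that works with PAN3, had 43.1, 34.9 and 31.3 CPM in p-UPF1 IP and 17.9, 3.58 and 29.4 CPM in pre-IP. The 3.58 CPM, in pre-IP replicate 4, is 1 count. The log2 fold change of PAN2 was 0.97 (edgeR adjusted p = 0.183), while PAN3 itself had -0.23. PARN, a deadenylase that also trims non-coding RNAs, had -0.22. For the antiproliferative adaptors that bind CNOT7 and CNOT8 the log2 fold changes were -0.81 (TOB1), -0.49 (TOB2) and -1.28 (BTG2), with overlapping groups, and on library totals alone 0.69, 0.98 and 0.27. BTG2 ranged from 6.71 to 18.9 CPM in p-UPF1 IP and from 5.12 to 60.9 CPM in pre-IP. Its edgeR adjusted p was 0.23, and 0.046 without pre-IP replicate 1.

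CNOT1 is also the host of H/ACA box small nucleolar RNAs (snoRNAs), which guide pseudouridylation and are released from its introns. Their sequences are shown because they are separate reads of the same transcription unit, and neither overlaps a CNOT1 exon in GENCODE 29 on GRCh38 (chromosome 16). Capitals mark the ACA box, 3 bases from the 3′ end.
SNORA46: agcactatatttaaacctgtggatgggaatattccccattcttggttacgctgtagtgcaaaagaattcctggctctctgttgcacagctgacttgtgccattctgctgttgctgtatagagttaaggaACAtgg
SNORA50A: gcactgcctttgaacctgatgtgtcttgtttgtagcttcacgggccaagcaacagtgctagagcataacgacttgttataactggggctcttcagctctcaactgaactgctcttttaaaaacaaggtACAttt
SNORA46 had 21211, 31042 and 10623 counts in p-UPF1 IP and 19359, 19885 and 16648 counts in pre-IP. It fell by 2.39 on the log2 scale (SE 0.76, edgeR adjusted p = 0.0342), opposite in sign to the exons of its host. That call was lost on library totals alone (-0.79, adjusted p = 0.132). It was also lost without p-UPF1 IP replicate 3 (0.182) or 6 (0.0689), or without pre-IP replicate 1 (0.0571), 4 (0.0927) or 7 (0.0641). SNORA50A, listed in the table under its synonym SNORA76A, had a log2 fold change of -0.85 (SE 0.53, edgeR adjusted p = 0.277), or 0.77 on library totals alone. The difference between the mRNA and its snoRNAs was not tested.

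Of the 10 decapping and 5′-to-3′ decay genes, 9 were tested, of which 2 rose and 1 fell, where 8.81% of all tested genes rose and 10.9% fell. The median log2 fold change was 0.58. It was 2.11 on library totals alone, 0.04 and 0.10 with the transcript-length or coding-length trend removed, and 0.22 and 0.35 without p-UPF1 IP replicate 3 or pre-IP replicate 1. EDC3, a scaffold that enhances DCP2 activity, had 46.4, 32.8 and 43.6 CPM in p-UPF1 IP (152, 90 and 78 counts), against 16.6, 17.9 and 6.91 CPM in pre-IP (13, 5 and 4 counts). Every p-UPF1 IP library was above every pre-IP library. EDC3 was 3.03-fold higher in p-UPF1 IP (log2 fold change 1.6, SE 0.48, edgeR adjusted p = 0.0278). The call was lost without p-UPF1 IP replicate 3 (adjusted p = 0.137), 6 (0.0573) or 9 (0.103) or pre-IP replicate 7 (0.0669), with limma-voom (0.0725) and in libraries thinned to equal totals (0.0647).

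XRN1, the main cytoplasmic 5′-to-3′ exonuclease, had 49.5, 44.4 and 47.5 CPM in p-UPF1 IP (162, 122 and 85 counts), against 29.4, 0 and 3.46 CPM in pre-IP (23, 0 and 2 counts). The p-UPF1 IP libraries were close together and the pre-IP libraries far apart. The log2 fold change was 1.79 (SE 0.61, edgeR adjusted p = 0.0477). It was 4.32 without pre-IP replicate 1 (adjusted p = 0.00124). The call was lost without pre-IP replicate 4 (0.0731) or 7 (0.116), and without p-UPF1 IP replicate 3 (0.141), 6 (0.12) or 9 (0.132). XRN2, its mainly nuclear relative, was counted more evenly, with 80.6, 61.5 and 90.6 CPM in p-UPF1 IP and 104, 150 and 69.1 CPM in pre-IP (log2 fold change -0.44, edgeR adjusted p = 0.37).

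LSM1, the subunit that sets the cytoplasmic LSM1-7 ring apart from its nuclear counterpart, had 1.53, 10.6 and 11.7 CPM in p-UPF1 IP (5, 29 and 21 counts), against 20.5, 32.2 and 50.1 CPM in pre-IP (16, 9 and 29 counts). The groups did not overlap, and p-UPF1 IP replicate 3 was the lowest library. LSM1 was 4.38-fold lower in p-UPF1 IP (log2 fold change -2.13, SE 0.68, edgeR adjusted p = 0.0354), and -0.58 on library totals alone (adjusted p = 0.493). The call was lost without p-UPF1 IP replicate 3 (log2 fold change -1.62), 6 (adjusted p = 0.0725) or 9 (0.0677) or pre-IP replicate 4 (0.055) or 7 (0.141).

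The remaining decapping genes did not pass the threshold. EDC4, the large scaffold of the decapping complex, had 56.2, 56.1 and 66.6 CPM in p-UPF1 IP and 29.4, 32.2 and 29.4 CPM in pre-IP. The libraries of each group lay close together and the groups did not overlap (log2 fold change 0.98, SE 0.35, edgeR adjusted p = 0.0581, or 0.0432 by DESeq2). DCP2, the decapping enzyme, had 97.7, 88.5 and 86.7 CPM in p-UPF1 IP, and its pre-IP libraries spread over 92.1, 7.16 and 46.7 CPM. Its edgeR adjusted p was 0.242, or 0.032 without pre-IP replicate 1 (log2 fold changes 0.77 and 1.56). DDX6, the helicase that links CCR4-NOT to decapping, had 107, 90.6 and 106 CPM in p-UPF1 IP and 90.8, 46.5 and 105 CPM in pre-IP (log2 fold change 0.28, edgeR adjusted p = 0.585). DCP1A, a DCP2 cofactor, and PATL1, a decapping scaffold, had 0.19 and 0.58. DCP1B had 0, 8 and 8 counts in p-UPF1 IP and 0 in every pre-IP library, and was not tested. Against a floor of 3 counts over the pre-IP group its ratio was 1.12. That ratio leaves out the counting error of the p-UPF1 IP counts, so no difference is read from it.

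Of the 13 exosome and Ski genes, 12 were tested, of which 0 rose and 2 fell, where 8.81% of all tested genes rose and 10.9% fell. The median log2 fold change was -0.34. Its sign turned on library totals alone (1.22), with the transcript-length trend removed (0.13) and without pre-IP replicate 4 (0.04). At an unadjusted p under 0.05, 1 was higher and 3 lower by edgeR, where 1396 and 1349 of all 8070 tested genes were. DESeq2 and limma-voom each called 0 exosome and Ski genes higher. EXOSC7, a subunit of the exosome's catalytically inert ring, had 15.9, 12.4 and 13.4 CPM in p-UPF1 IP (52, 34 and 24 counts), against 33.3, 46.5 and 44.9 CPM in pre-IP (26, 13 and 26 counts). The groups were well apart. EXOSC7 was 2.93-fold lower in p-UPF1 IP (log2 fold change -1.55, SE 0.44, edgeR adjusted p = 0.0204). The call was lost on library totals alone (-0.03, adjusted p = 0.962) and without p-UPF1 IP replicate 3 (0.0677), 6 (0.0819) or 9 (0.0834).

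EXOSC8, another ring subunit, had 13.7, 23.7 and 24.6 CPM in p-UPF1 IP, against 53.7, 21.5 and 69.1 CPM in pre-IP, and the groups overlapped. The log2 fold change of -1.29 (SE 0.44) was at the threshold (edgeR adjusted p = 0.0498). It was lost with 15 of 18 other settings, with 0.21 on library totals alone and adjusted p of 0.22, 0.112 and 0.114 without p-UPF1 IP replicate 3, 6 or 9 and of 0.093 and 0.17 without pre-IP replicate 1 or 7.

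Ring and cap subunits otherwise overlapped between groups. EXOSC3, a cap subunit, had 8.25, 15.7 and 4.47 CPM in p-UPF1 IP and 34.5, 14.3 and 29.4 CPM in pre-IP (log2 fold change -1.5, edgeR adjusted p = 0.0904, or 0.0355 by limma-voom). EXOSC9, the most counted ring subunit, had 46.7, 51.0 and 43.1 CPM in p-UPF1 IP and 53.7, 64.5 and 24.2 CPM in pre-IP, a log2 fold change of 0.02. EXOSC1, EXOSC2, EXOSC5 and EXOSC6 had -0.58, -0.22, 0.09 and -0.70, with edgeR adjusted p of 0.227 or more. EXOSC4 had 7, 26 and 11 counts in p-UPF1 IP and 0, 5 and 4 in pre-IP and was not tested.

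The cytoplasmic nuclease and the large Ski subunits had positive values that did not pass the threshold. TTC37, the scaffold of the Ski complex, had 118, 60.4 and 73.8 CPM in p-UPF1 IP and 71.6, 10.7 and 13.8 CPM in pre-IP, so that pre-IP replicate 1 overlapped p-UPF1 IP (log2 fold change 1.23, SE 0.50, edgeR adjusted p = 0.0913). Without that library its log2 fold change was 2.73 (adjusted p = 0.00216). DIS3L, the cytoplasmic exosome nuclease, had 0.86, and SKIV2L, the Ski helicase, had 0.78 on 12 counts in pre-IP. The small subunit WDR61 had -0.45.

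**Figure D2:**
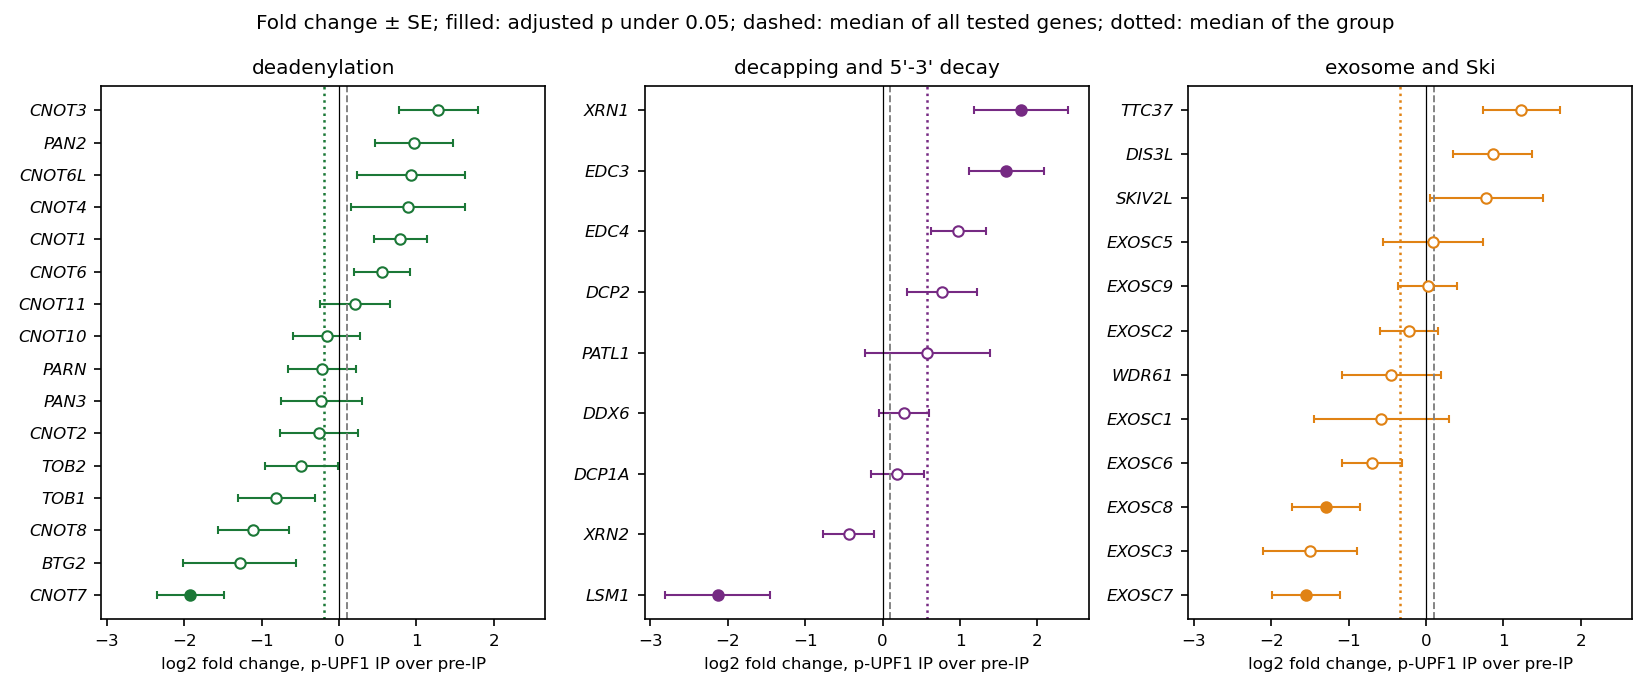
Log2 fold change of p-UPF1 IP over pre-IP for the 37 tested genes by role, with SE bars. Filled points pass edgeR's adjusted p under 0.05, the dashed line is the median of all tested genes (0.10) and the dotted lines are the medians of the roles (-0.19, 0.58 and -0.34). The 6 filled points are XRN1, EDC3, CNOT7, LSM1, EXOSC7 and EXOSC8, of which EXOSC8 is positive on library totals alone.

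Ratios between related genes within a library, taken on counts + 0.5, do not depend on the scaling of libraries. The log2 ratio of CNOT7 to CNOT8 was -0.03, -0.53 and -0.42 in p-UPF1 IP and 0.36, 0.85 and 0.32 in pre-IP, so the groups did not overlap. The difference was -0.84. A two-sided exact permutation test gave p = 0.1, below which 6 libraries in these groups cannot go, and 0.25 after Benjamini-Hochberg adjustment over 5 pairs. The log2 ratio of XRN1 to XRN2 was -0.70, -0.47 and -0.93 in p-UPF1 IP and -1.79, -6.41 and -4.02 in pre-IP, a difference of 3.37 (exact p = 0.1, Benjamini-Hochberg 0.25). The pre-IP values rest on 25 XRN1 counts in all, and the -6.41 of replicate 4, with 0 counts, is set by the added 0.5. The difference was 2.21 without pre-IP replicate 4, 4.51 without pre-IP replicate 1 and 4.11 with a smaller added value. For CNOT6 to CNOT6L and TOB1 to TOB2 the differences were -0.74 and -0.35, with overlapping groups (exact p = 0.4 and 0.6). The DCP1A to DCP1B ratio in pre-IP is set by the added 0.5, since DCP1B had 0 counts in every pre-IP library, and nothing is read from it. Its difference was -0.25, and -1.53 with a smaller value added. A p that misses the threshold does not show that these pairs behaved alike.

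What the members shared with the rest of the table was an order by length. Over the 37 tested members the log2 fold change correlated with log2 coding length at Pearson r = 0.76 (Spearman rho 0.76), and with log2 transcript length at r = 0.60. Over the 7688 tested protein-coding genes these values were 0.45 and 0.35. These are descriptions across genes measured in the same 6 libraries, coding length was looked at after the values were seen, and genes are not independent replicates. Of the 18 members with a coding part above 1531.5 bases, the median of tested protein-coding genes, 13 had positive log2 fold changes, 1 was called higher (XRN1) and 0 lower. Of the 19 at or below it 6 were positive, 1 was called higher (EDC3) and 4 lower. Among the 6 positive members, EDC3 (1524 bases) and CNOT11 (1530 bases, log2 fold change 0.21) lay just below that median. All tested protein-coding genes showed the same order, with 71.7% positive above that median and 39.7% at or below it. Of the 3844 above it 550 were called higher and 59 lower, and of the 3844 at or below it 150 were called higher and 562 lower.

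The roles differ in length as well. The median coding length was 1668 bases for tested deadenylation genes, 1746 for decapping and 5′-to-3′ decay and 876 for exosome and Ski genes. Members lay on either side of the trend of all protein-coding genes. XRN1, with 5118 coding bases, was at 1.79 where the trend was at 0.96, and LSM1, with 399, was at -2.13 where it was at -1.01. CNOT7 lay farthest below the trend of all 37 (855 coding bases, -1.92, trend -0.27), and EDC3 farthest above it (1524 coding bases, 1.6, trend 0.14). With the coding-length trend removed 0 members were called higher and 1 lower, CNOT7 (-1.72, edgeR adjusted p = 0.0217). EDC3 (1.40, adjusted p = 0.0799), EXOSC7 (-1.37, 0.0632), XRN1 (0.78, 0.446), LSM1 (-1.21, 0.272) and EXOSC8 (-1.07, 0.143) no longer passed. With the transcript-length trend removed CNOT7 again was the one member called (-2.51, edgeR adjusted p = 0.00161). Its annotated transcript is 6913 bases long, most of it outside the coding part.

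**Figure D3:**
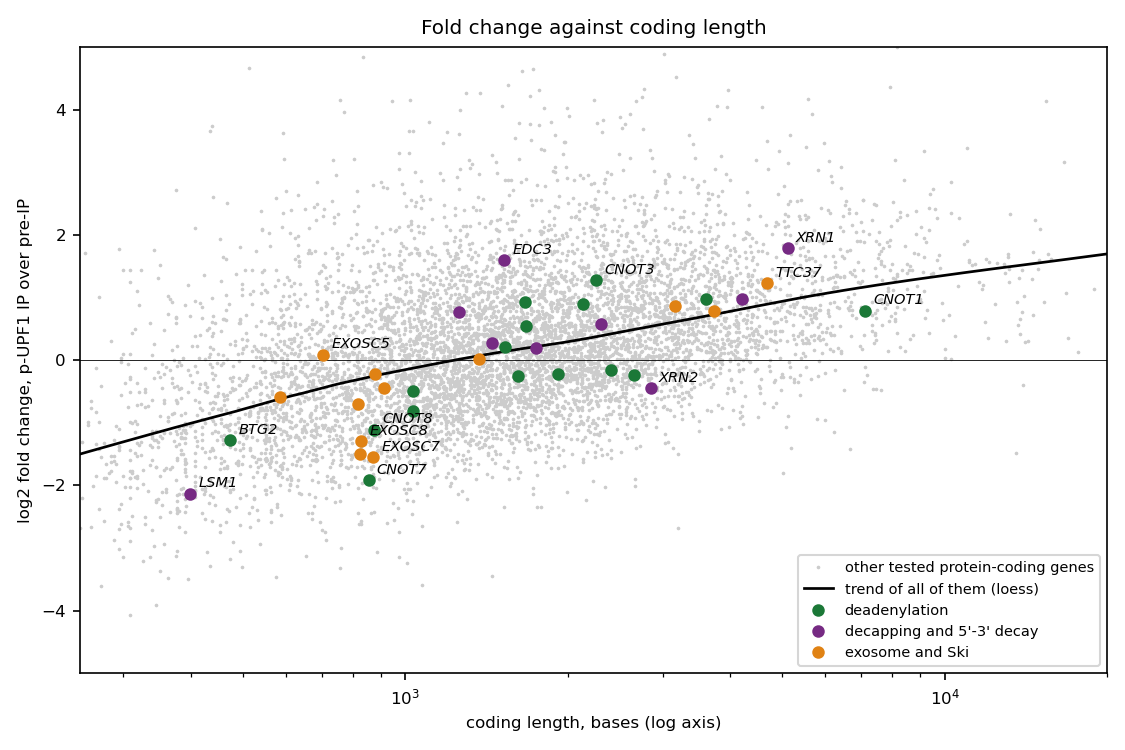
Log2 fold change of p-UPF1 IP over pre-IP against coding length (log axis) for the 37 tested members, coloured by role, over all tested protein-coding genes (grey, a few beyond the axes not drawn) and their loess trend (black). Members with short coding parts, such as LSM1 and CNOT7, lie mostly below 0 and long ones, such as XRN1 and TTC37, above.

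Levels per kilobase of transcript put CNOT1 at the top in p-UPF1 IP, at 55.3 ± 11.6 CPM per kb, followed by EXOSC9 at 30.7 ± 2.59, XRN2 at 22.6 ± 4.30 and EXOSC2 at 21.9 ± 7.27 (SD, n = 3). XRN2 and EXOSC2 did not differ beyond their spread. In pre-IP the upper levels were EXOSC8 at 40.2 ± 20.3, EXOSC7 at 39.4 ± 6.87, CNOT1 at 32.1 ± 8.94, XRN2 at 31.3 ± 11.9 and EXOSC9 at 31.0 ± 13.6 CPM per kb, and neighbours in that order did not differ beyond their spread. The lengths are of 1 annotated transcript per gene, which may not be the one used in these cells.

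Related genes of cytoplasmic decay outside the 39 gave 1 higher and 2 lower of 37 tested, among 42 in the table (2.7% and 5.41%, against 8.81% and 10.9% of all tested genes), with a median log2 fold change of -0.16. RC3H1, the RNA-binding protein Roquin-1 that recruits CCR4-NOT, had 33.6, 57.9 and 35.8 CPM in p-UPF1 IP and 19.2, 3.58 and 17.3 CPM in pre-IP (log2 fold change 1.5, SE 0.5, edgeR adjusted p = 0.0419). Its call was lost without p-UPF1 IP replicate 3 (0.09), 6 (0.225) or 9 (0.0922) or pre-IP replicate 4 (0.066). The RC3H1 call was also lost with limma-voom (0.108), in thinned libraries (0.108) and with the transcript-length trend removed (0.426). LSM6, another subunit of the LSM1-7 ring, had 4.89, 2.18 and 3.36 CPM in p-UPF1 IP and 19.2, 46.5 and 51.8 CPM in pre-IP (log2 fold change -3.42, SE 0.64, edgeR adjusted p = 0.00142, or 0.0601 with the coding-length trend removed). LSM5, of the same ring, had 22.9, 13.1 and 22.9 CPM in p-UPF1 IP and 75.5, 50.1 and 43.2 CPM in pre-IP (-1.54, SE 0.41, edgeR adjusted p = 0.0133), and was at -0.02 on library totals alone. Its adjusted p was 0.0748 without p-UPF1 IP replicate 6 and 0.0739 without pre-IP replicate 1. RC3H1 and LSM5 also lost their calls with the coding-length trend removed (0.349 and 0.793).

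**Figure D4:**
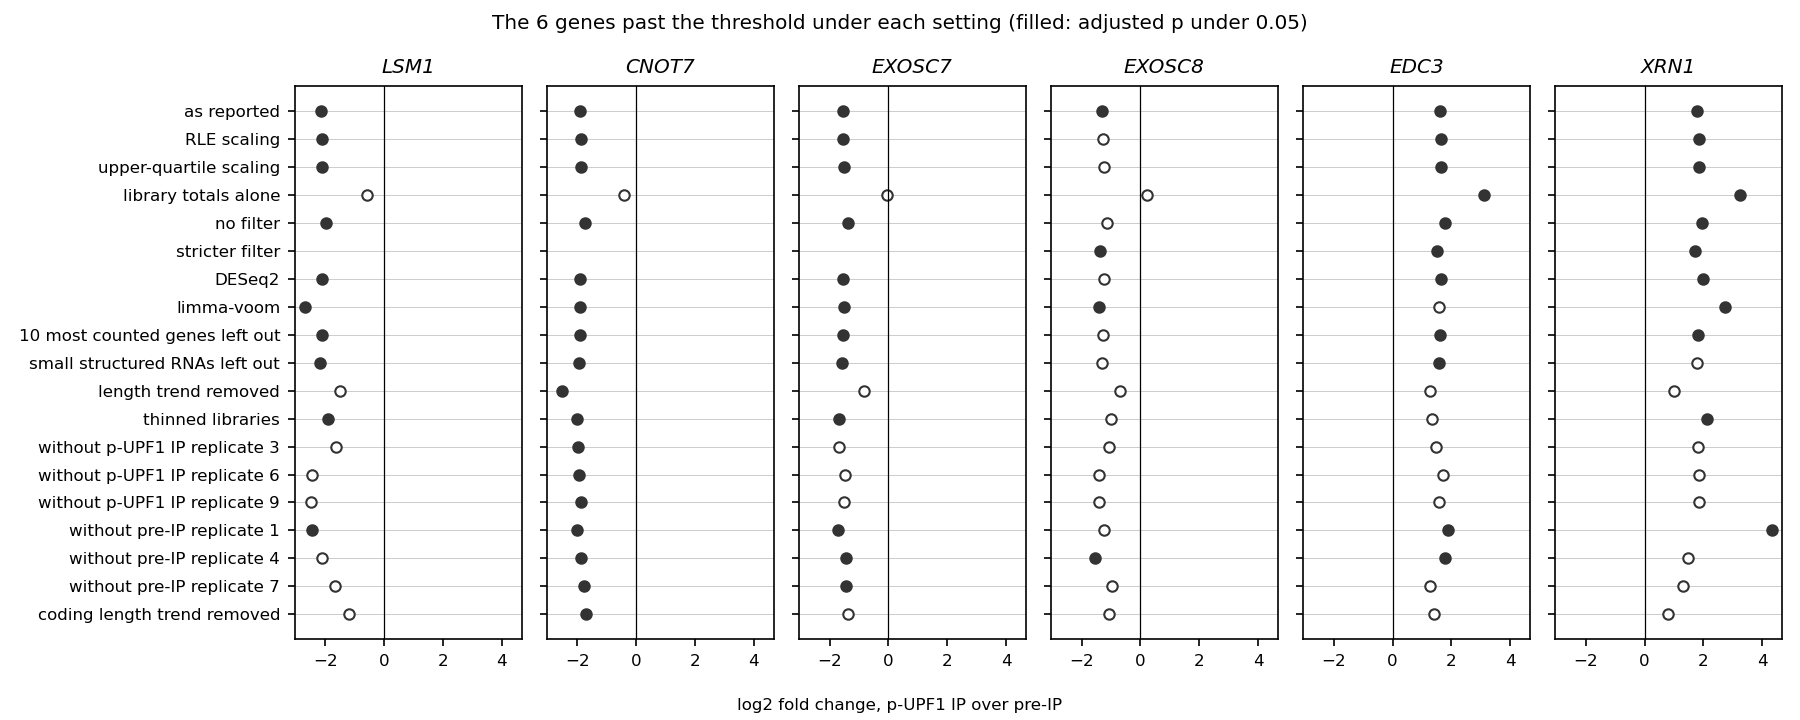
Log2 fold change of p-UPF1 IP over pre-IP for the 6 members past the threshold under each analysis setting, filled where the adjusted p is under 0.05 and left out where the gene was not tested. CNOT7 stays filled except on library totals alone, and EXOSC8, which is positive on library totals alone, is filled in 4 of 19 settings.

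The share of all tested genes called higher moved with the setting, and the members' counts are read against it. With RLE scaling 2 members were higher (9.49% of all genes), with upper-quartile scaling 2 (9.53%), with no filter 3 (7.32%), with the stricter filter 2 (12.8%), with DESeq2 3 (10.2%) and with limma-voom 1 (8.07%). Without the 10 most counted genes of each library 2 were higher (9.02%), without small structured RNAs 1 (7.84%) and in thinned libraries 2 (9.78%). With the transcript-length and coding-length trends removed 0 were higher by edgeR (3.94% and 3.51% of all genes). Without p-UPF1 IP replicate 3, 6 or 9 there were 0 (3.3%, 3.99% and 3.62%). Without pre-IP replicate 1 there were 4 (9.03%), without replicate 4 there was 1 (8.53%) and without replicate 7 there was 1 (7.6%).

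Calls of lower genes moved with the setting as well. With all libraries 4 members were lower, and 880 of 8070 genes. Without p-UPF1 IP replicate 3, 6 or 9 there was 1 member lower each time, CNOT7, where 518 of 8285, 617 of 8338 and 596 of 8624 genes were lower. Without pre-IP replicate 1 there were 4 members (784 of 8650 genes), without replicate 4 there were 3 (833 of 9323) and without replicate 7 there were 2 (808 of 9238). On library totals alone 0 members and 164 of 8070 genes were lower. With the transcript-length or coding-length trend removed 1 member was lower, where 568 and 372 of 7688 genes were.

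Reads from some of these genes cannot be separated from their neighbours. In GENCODE 29, exons of CNOT7, LSM1, EDC3 and EXOSC8 overlap exons of VPS37A, BAG4, CLK3 and SUPT20H on the opposite strand, and these neighbours had 57, 147, 134 and 192 counts over all 6 libraries. Exons of other members, such as CNOT1, CNOT3 and EXOSC9, also overlap those of neighbours on the opposite strand. On the same strand, exons of EXOSC7 overlap those of CLEC3B (0 counts), and exons of PAN2 those of CNPY2 (312 counts). The strand setting of the counting is not given in the sources used here. CNOT7, LSM1, DDX6, EXOSC3, CNOT4 and CNOT6L also have processed pseudogenes in GENCODE 29 that have no row in the table, so reads shared with them cannot be traced.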

How the data were processed

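Whole-number counts per gene symbol were deposited by the authors, unnormalized, in 1 column per library, and every column was used. Per the submitters' processing notes, cutadapt 1.15, STAR 2.5.2b and featureCounts (Subread 1.5.0p3) were run with the hg19 build. The sources used here do not state the annotation, the strand setting or the treatment of multi-mapping reads. Per the labels' protocols, RNA was depleted of rRNA, ligated to 33 nt adapters and amplified over 20 PCR cycles, with inserts above 20 bp kept. No molecular identifiers are described, so intervals and floors cover counting error only, and a floor only that of the pre-IP counts.

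Genes passing filterByExpr (minimum count 10) were tested with edgeR 4.0.16 (quasi-likelihood, TMM) in R 4.3.3. SE is the log2 fold change divided by the square root of F. DESeq2 1.42.0 and limma-voom (limma 3.58.1) were alternatives. Lengths came from the GENCODE 29 basic transcript with the longest coding part, matched by symbol or RefSeq synonym for 24549 of 26364 symbols (39 of 39 members). That annotation is on GRCh38, so no coordinates are given. Trends were loess fits (span 0.5) entered as offsets. The test was run on simulated counts first. It recovered 9.38% of simulated 2-fold, 82.8% of 4-fold and 98.2% of 8-fold changes, and 9 of 124 calls were false. Most 2-fold changes were therefore missed there.

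Members and lists were chosen with earlier results of these data known. Values in every library are given for members past the threshold, the 2 most counted of each role and the extremes of each role, and others were added as examples after their values were seen. Nothing in the labels ties replicates to separate cultures. The p-values therefore reflect library-to-library spread, which may be technical.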

Additional observations from a re-analysis of the deposited data

How the results depend on the processing

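The groups share no replicate numbers and no label pairs their libraries, so no paired analysis was run. Whether libraries of the 2 groups came from the same culture is not stated, and the tests treat them as unpaired. Members called were 2 higher and 4 lower as reported. On library totals alone they were 23 and 0 (deadenylation 10 and 0, decapping and 5′-to-3′ decay 8 and 0, exosome and Ski 5 and 0, related genes 22 and 1). Leaving out each library in turn gave 0 to 4 members higher and 1 to 4 lower. By role this was 0 to 1 and 1 to 2 for deadenylation, 0 to 3 and 0 to 1 for decapping, 0 to 1 and 0 to 2 for exosome and Ski, and 0 to 3 and 1 to 3 for related genes. Over all genes, calls without a p-UPF1 IP library were 273 to 333 higher, against 711 with all 6. With the transcript-length trend removed members had 0 higher and 1 lower (decapping 0 and 0, exosome and Ski 0 lower, related genes 4 lower), and with the coding-length trend, an alternative chosen after the data were seen, 0 and 1 (decapping 0 and 0, exosome and Ski 0 lower, related genes 0 higher). The stricter filter (minimum count 30), which tests 22 members, left 1 lower (deadenylation 0, decapping 0, exosome and Ski 1). Under it 800 of 4431 genes were lower, and CNOT7, LSM1 and EXOSC7 were not tested. Members called higher were 1 with limma-voom and 1 with small structured RNAs left out, in each case 1 decapping gene, and thinned libraries gave 1 decapping and 1 exosome and Ski gene higher. Exosome and Ski genes called lower were 1 with RLE or upper-quartile scaling, no filter, DESeq2, the 10 most counted genes left out, small structured RNAs left out or thinned libraries. No filter gave 1 exosome and Ski gene higher. Related genes called higher were 2 with upper-quartile scaling, no filter or limma-voom and 0 in thinned libraries. Apart from what an alternative does by construction (fewer genes or libraries), the cause was not tested.

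Signs turned as follows. On library totals alone the log2 fold changes were 1.23 for CNOT2, 0.38 for CNOT8, 1.40 for CNOT10, 1.33 for PAN3, 1.32 for PARN, 0.69 for TOB1, 0.98 for TOB2, 0.27 for BTG2, 1.14 for XRN2, 1.09 for EXOSC1, 1.34 for EXOSC2, 0.84 for EXOSC6, 0.21 for EXOSC8, 1.08 for WDR61 and 0.77 for SNORA76A. With the transcript-length trend removed they were -0.32 for DCP1A, -0.25 for DDX6 and 0.28 for EXOSC1, and with the coding-length trend removed -0.45 for CNOT1, -0.09 for DCP1A, -0.11 for EXOSC9 and -0.01 for SKIV2L. PAN3 had 0.17 with limma-voom, CNOT10 0.01 with no filter and EXOSC9 -0.06 with the stricter filter. Without single libraries the range was -0.47 to 0.31 for CNOT2, -0.02 to 0.48 for DCP1A, -1.56 to 0.28 for EXOSC1, -0.48 to 0.04 for EXOSC2, -0.12 to 0.62 for EXOSC5, -0.28 to 0.28 for EXOSC9, -0.73 to 0.52 for PAN3, -0.47 to 0.08 for PARN and -0.15 to 2.05 for PATL1. The log2 ratio of TOB1 to TOB2 ranged from -0.63 to 0.06 and that of DCP1A to DCP1B from -1.78 to 0.84. Counts of 0 to 2 in single pre-IP libraries limit how well levels there are known. Among tested members this holds for CNOT4, CNOT6L, PAN2, DCP2, PATL1, XRN1, EXOSC5 and SKIV2L.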
